A study of Danio rerio with 2 samples.

Results

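Pairs of regions enriched for RARaa were examined in the zebrafish genome, a pair being 2 enriched intervals whose midpoints lay at most 10 kb apart with no further interval within 10 kb of either. To find them, the peak list was collapsed to distinct intervals, which were sorted by midpoint along chromosomes 1 to 25 and joined wherever successive midpoints were at most 10000 bp apart. Of 4547 such intervals, 532 (11.7%) fell into 266 pairs, while 3670 stood alone and 345 formed 80 groups of 3 or more. The rule used positions only, so that the height, length and enrichment of the members were free to vary.

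Chromatin was prepared from pools of whole zebrafish embryos that had been injected as eggs with mRNA for RARaa carrying a myc tag, labelled 10.5 hpf (hours post fertilization), kept with retinoic acid (RA) for 1 hour and fixed in 1.85% PFA (paraformaldehyde) for 10 min. The RARaa library (ChIP-seq with an antibody against myc) contained 48809259 tags, of which 39480982 were kept, and the input library, made from chromatin without the pull-down, contained 54439579 tags, of which 51506879 were kept. The injection and the RA treatment were common to both libraries, and the receptor that was pulled down was the injected, tagged protein and not the endogenous one, in all cell types of the embryo together. Each group had 1 library, so the spread between embryo batches is unknown and no test was made.

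RARaa is a nuclear receptor of the retinoic acid receptor (RAR) family, whose members bind DNA as heterodimers with retinoid X receptors at short direct repeats named retinoic acid response elements. Such elements lie in promoters and in distant enhancers, and a target gene may carry several of them. In the vertebrate embryo RA patterns the hindbrain, the trunk and the foregut endoderm, with hox genes and the genes for RA-degrading Cyp26 enzymes among its best known targets.

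Each interval is described by its pileup, the number of extended ChIP tags covering its summit, and by its fold enrichment, the ratio of that pileup to the local input background. The paired intervals had a median pileup of 39 tags (95% interval of the median 37 to 41), against 63 tags in groups of 3 or more and 29 tags for the intervals alone. Their median fold enrichment was 4.39 (4.15 to 4.63), against 4.01 in the larger groups, 3.67 for the intervals alone and 3.76 over all 4547 intervals. A −log10 q above 5, taken here as a strong interval, was found for 395 of the 532 members (74.2%, 95% Wilson interval 70.4 to 77.8%), against a background of 60.5% of all intervals, 72.5% of the intervals in larger groups and 57.4% of those alone. Of the members, 52 reached a 10-fold enrichment (9.77%, 7.53 to 12.6%), against 6.93% of all intervals, 16.5% of those in larger groups and 5.61% of those alone. The length of the members had a median of 280.5 bp (269 to 290) and a range from 200 to 947 bp, against 313 bp in the larger groups and 248 bp for the intervals alone. Paired intervals thus lay above the solitary ones in pileup, fold enrichment and length, by medians. They lay below the larger groups in pileup and length, again by medians and as a description of these libraries. Pileup is not divided by the input background, whose median was 8.89 tags in larger groups, 7.26 in pairs and 6.70 alone. In fold enrichment, the 95% interval of the larger groups' median (3.65 to 4.54) held the 4.39 of the pairs. The 95% intervals of medians and shares treat neighbouring sites as independent draws, which they are not. Those on pileups and their ratios cover counting error only, since each group had 1 library. Tags also carried no molecular identifiers. Should both ends of a sequenced fragment have been counted as tags, which the peak list leaves unknown, the intervals on pileups and ratios are too narrow.

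**Figure D1:**
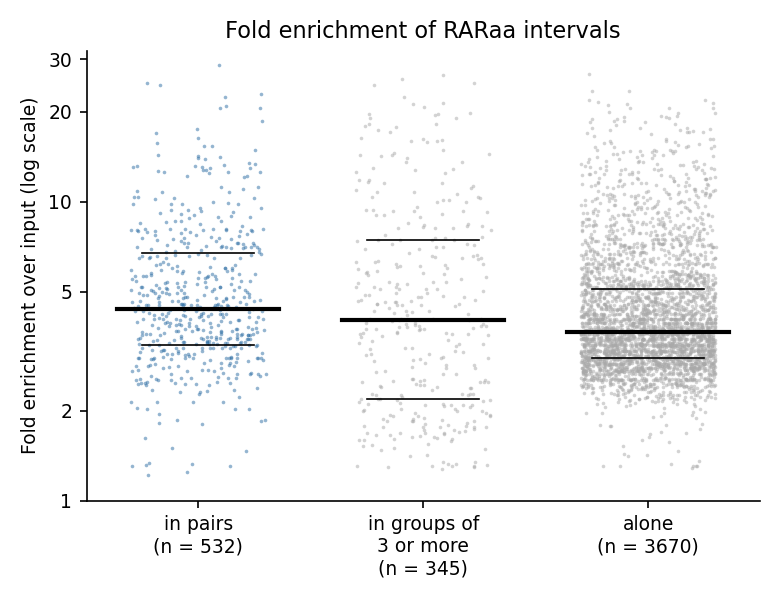
Fold enrichment over input (log scale) of each distinct interval of chromosomes 1 to 25, for intervals in pairs (n = 532), in groups of 3 or more (n = 345) and alone (n = 3670). Thick lines are medians and thin lines quartiles, and the median is 4.39 in pairs, 4.01 in larger groups and 3.67 alone.

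To relate the pairs to genes, members were matched by exact position to the peak annotation made in the study, which assigned a peak to the closest gene. That annotation was held here only for peaks near RA-regulated genes or in conserved non-coding elements and above a height score, so a member without a gene name may still lie near a gene. A gene was given for 63 of the 532 members, in 44 pairs, against 352 of all 4547 intervals. Of the 63 members, 25 were classed as promoter, 20 as intron and 18 as intergenic. Classes were not counted over all annotated intervals, so no share stands beside these. The class was read without any distance to the start site, so promoter here names a class and not a place close to that site. The rasgef1ba members, for example, were both classed as promoter though 7181 bp apart. All 63 were strong, as were all 352 annotated intervals, whose lowest −log10 q was 5.12, so the strength of annotated members follows from the selection. A gene was thus given for 63 of 395 strong members and for 352 of 2750 strong intervals. In 19 pairs both members were annotated, and in 18 of these the 2 intervals were assigned to 1 gene. Members at most 10 kb apart will mostly share their closest gene, so this count largely follows from the rules.

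Among genes of RA metabolism, cyp26a1 and cyp26b1, which encode enzymes that inactivate RA, had 2 pairs each. An intergenic cyp26a1 pair at chr12:9678593-9678923 and chr12:9686957-9687333 (Zv9) had pileups of 69 and 120 tags and fold enrichments of 7.19 and 12.6. The other cyp26a1 pair had 134 tags (15.3-fold) at chr12:9733132-9733652, in an intron of a neighbouring gene, and 23 tags (2.45-fold) at chr12:9736619-9736857, which carried no annotation. Both cyp26a1 pairs were unequal, the taller member exceeding the shorter 1.74 times (95% interval 1.28 to 2.37) in the first pair and 5.83 times (3.72 to 9.51) in the second.

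The cyp26b1 pairs were more even. Its intergenic pair had members only 437 bp apart, chr7:26619216-26619505 with 58 tags and 8.10-fold enrichment and chr7:26619643-26619952 with 48 tags and 5.65-fold enrichment. In its other pair, 4866.5 bp apart, chr7:26493434-26493900 had 31 tags (4.05-fold) and chr7:26498430-26498637 had 27 tags (3.23-fold). Only the first was annotated, with the class promoter. The interval of the pileup ratio held 1 for both of these pairs.

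A pair of very unequal height, with both members classed as promoter, was assigned to dhrs3b. This gene belongs to the short-chain dehydrogenase family, and its mammalian counterpart reduces retinaldehyde to retinol. The interval chr11:29488731-29489124 had 161 tags and 12.2-fold enrichment, and chr11:29490117-29490317, 1289.5 bp away, had 28 tags and 3.37-fold enrichment. The local input background was 12.3 tags at the taller and 7.60 tags at the shorter.

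Homeobox genes accounted for the other pairs on the list of RA pathway and hox genes. The pair 5950 bp apart in the hoxD region joined a promoter interval of hoxd4a, a hox transcription factor, at chr9:1938820-1939106 (87 tags, 7.04-fold) to a promoter interval of the microRNA gene dre-mir-10b-1 at chr9:1944774-1945052 (59 tags, 5.11-fold). At mnx1, a homeobox gene of motor neurons and the pancreas, chr7:42035533-42035817 had 32 tags and 3.86-fold enrichment and was classed as promoter, while its unannotated partner chr7:42040131-42040347 had 31 tags and 3.45-fold enrichment. At meis2a, which encodes a homeodomain cofactor of Hox proteins, chr17:53430410-53430658 was classed as promoter (46 tags, 3.76-fold), and its partner chr17:53429717-53429959 had 41 tags (4.12-fold). Pileups of the mnx1 and meis2a pairs were within counting error of each other.

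Of the 91 intervals assigned to a gene of that list, 11 were in 8 pairs, 50 in groups of 3 or more and 30 alone. Among all 352 annotated intervals the numbers were 63 in pairs, 75 in larger groups and 214 alone. Over all 4547 intervals they were 532 in pairs (11.7%), 345 in larger groups and 3670 alone. Most intervals of the list thus lay in larger groups, and the 11 in pairs are no sign that its genes favour pairs.

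**Figure D2:**
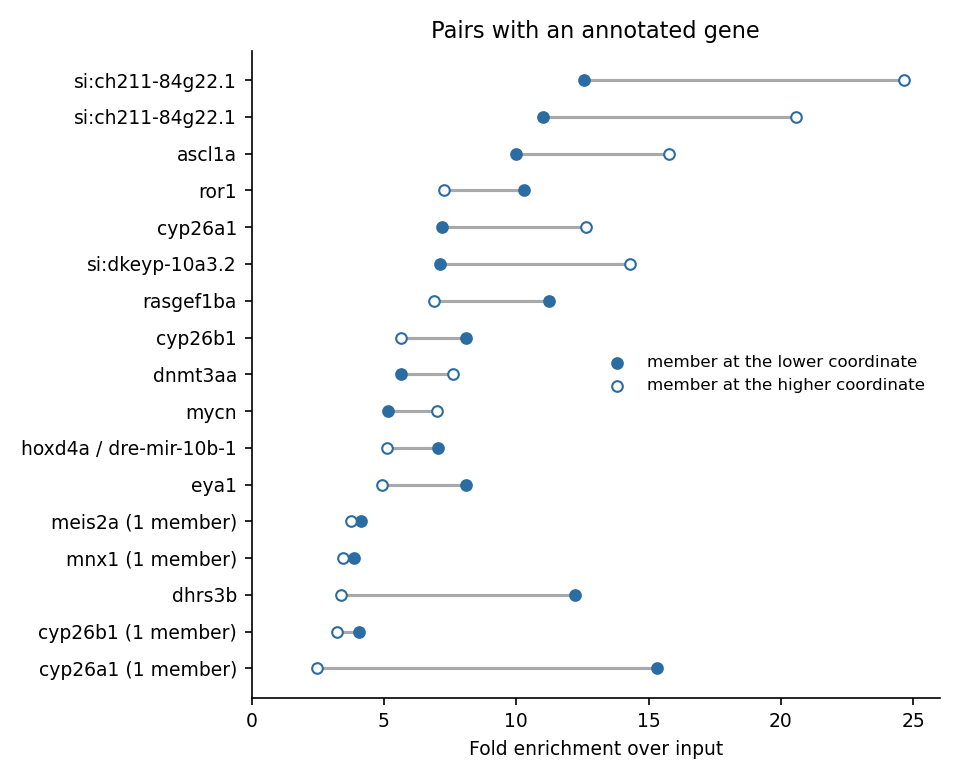
Fold enrichment over input of both members of 17 pairs, named by annotated gene and sorted by the lower value. Filled points are the member at the lower coordinate and open points the other, and "1 member" marks the 4 pairs in which only 1 interval carried the annotation. The first si:ch211-84g22.1 pair spans 12.6 to 24.6-fold, and the 2 mnx1 values are 3.86 and 3.45.

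Other genes had both members of a pair assigned to them. At ascl1a, a proneural transcription factor, the intergenic intervals chr4:16516189-16516539 and chr4:16526059-16526463 had 78 and 172 tags, or 10.0-fold and 15.8-fold enrichment. Within introns of ror1, a receptor tyrosine kinase-like protein of Wnt5 signalling, chr6:31596590-31596895 and chr6:31599295-31599596 had 85 and 72 tags (10.3-fold and 7.27-fold). In introns of eya1, a transcriptional co-activator with phosphatase activity, chr24:13899754-13900067 and chr24:13907303-13907572 had 88 and 47 tags (8.12-fold and 4.93-fold).

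The intervals of mycn, a Myc family transcription factor, were intergenic and 9570.5 bp apart, with 38 and 59 tags (5.16-fold and 6.999-fold). Those of dnmt3aa, a de novo DNA methyltransferase, were classed as promoter and lay 4062.5 bp apart, with 37 and 65 tags (5.64-fold and 7.62-fold). For rasgef1ba, a Ras guanine nucleotide exchange factor, the intervals classed as promoter had 105 and 60 tags (11.2-fold and 6.89-fold). For si:dkeyp-10a3.2 the intergenic ones had 48 and 123 tags (7.12-fold and 14.3-fold). In each of these 4 pairs the 95% interval of the pileup ratio lay above 1.

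On chromosome 3, 2 tall pairs were assigned to si:ch211-84g22.1, a gene model named only by its clone. In the first, chr3:24209477-24209867 had 156 tags and 12.6-fold enrichment and chr3:24218074-24219017, classed as promoter, had 222 tags and 24.6-fold enrichment. In the second, both in introns, chr3:24241965-24242381 had 103 tags (11.03-fold) and chr3:24248583-24248988 had 150 tags (20.6-fold). The members of each pair differed 1.42 times (1.15 to 1.76) and 1.46 times (1.13 to 1.89) in pileup.

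To find pairs in which both sites were strongly enriched, pairs were ranked by the fold enrichment of their lower member. The first was chr17:10932119-10932633 with 173 tags and 22.9-fold enrichment and chr17:10935127-10935715 with 178 tags and 20.7-fold enrichment, 3045 bp apart. The next was chr10:39748268-39748653 (177 tags, 17.5-fold) with chr10:39751084-39751512 (132 tags, 14.1-fold), at 2837.5 bp. Neither pair carried a gene name in the annotation used. The input background at these 4 intervals was between 6.59 and 9.20 tags, against a median of 6.90 tags over all intervals. The genome-wide level of 5.64 tags was also the lowest background of any interval.

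Lower members between 12.6-fold and 13.0-fold belonged to a pair at chr5:75559184-75559638 (112 tags) and chr5:75563750-75564116 (86 tags), and to a pair at chr15:28960243-28960645 (143 tags) and chr15:28967272-28967646 (112 tags). In both of these pairs the pileups agreed within counting error. The other pairs among the first 10 were the si:ch211-84g22.1 and ascl1a pairs, a pair on chromosome 5 and pairs at distant places on chromosome 13. On chromosome 5, chr5:26081112-26081572 had 202 tags (20.8-fold) and chr5:26086537-26086899 had 94 tags (10.4-fold). On chromosome 13, chr13:48622118-48622535 and chr13:48624397-48624772 had 120 and 125 tags (15.3-fold and 10.7-fold), and chr13:17393170-17393598 and chr13:17396401-17396755 had 156 and 87 tags (12.6-fold and 9.33-fold). Both members reached 10-fold enrichment in 9 pairs (3.38%), 1 member in 34 and neither in 223. Pairs of uniformly high enrichment were thus few in number, as were members at 10-fold enrichment (52 of 532, 9.77%). Whether the 9 pairs are more or fewer than unrelated members would give was not tested.

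The spacing of the pairs was then examined. The distance between midpoints had a median of 4571 bp (95% interval 3715 to 4996) and quartiles of 2223 and 6874 bp. It ranged from 275.5 to 9919.5 bp, of which the upper end is set by the rule. The lower end is bounded by the peak calling, as no interval was shorter than 200 bp. The unoccupied stretch between the ends of the 2 intervals was 4276 bp in the median and 51 bp at its shortest, and summits were 4574 bp apart in the median. In successive 1-kb bins of midpoint distance there were 31, 24, 39, 28, 28, 19, 33, 28, 15 and 21 pairs. No single distance dominated, and 150 pairs were at most 5 kb apart against 116 between 5 and 10 kb.

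Over all successive intervals of the 25 chromosomes, whether paired or not, short steps were more common than longer ones. There were 344 steps of up to 5 kb, 187 between 5 and 10 kb, 138 between 10 and 15 kb, 123 between 15 and 20 kb, and 72 to 102 in each 5-kb bin from there to 50 kb, while the median step was 152 kb. Pair steps accounted for 150 of the 344 and 116 of the 187, the others lying in groups of 3 or more.

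**Figure D3:**
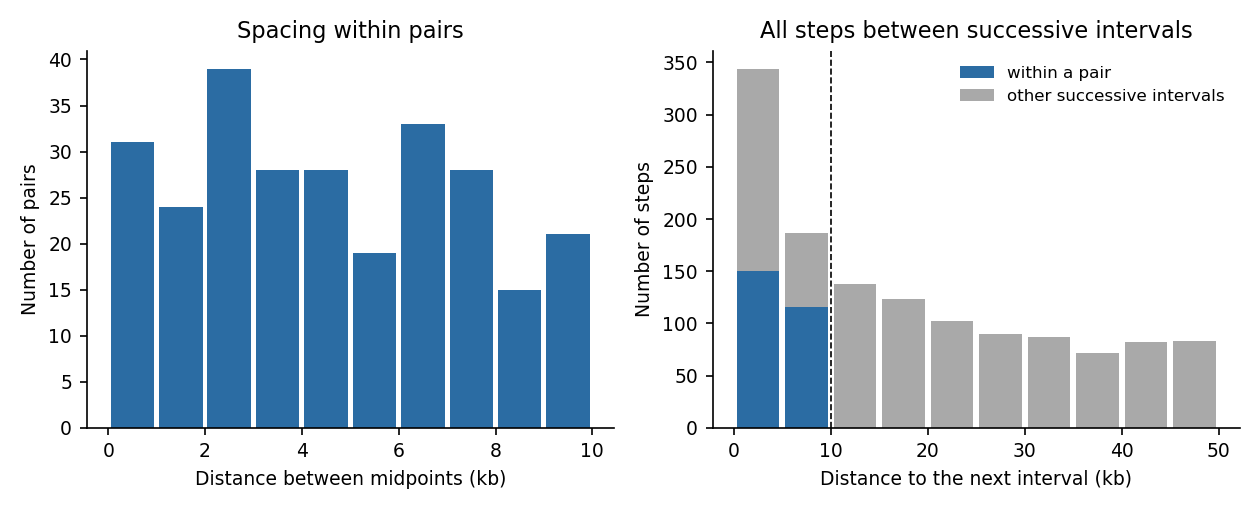
Left, number of pairs per 1-kb bin of the distance between midpoints (266 pairs), with 15 to 39 pairs in each bin. Right, number of steps between successive intervals per 5-kb bin up to 50 kb, with steps within pairs in blue and all others in grey, falling to 138 beyond the dashed line at the joining distance of 10 kb, against 344 in the first bin.

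Beyond the pair itself, the next interval was a median of 55.0 kb away, with quartiles of 20.9 and 151 kb. A further interval lay within 20 kb of 63 pairs (23.7%), and 84 pairs (31.6%) had none within 100 kb. Just beyond the joining distance lay weak and strong intervals alike. On chromosome 14, intervals starting at 51419664 and 51429713 were 10068.5 bp apart with 2.79-fold and 3.22-fold enrichment, and on chromosome 11, intervals starting at 2129567 and 2139727 were 10142 bp apart with 10.996-fold and 7.91-fold enrichment.

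Just inside the limit were the 5 widest pairs. The widest, chr13:5238669-5238919 and chr13:5248535-5248892, had 46 and 131 tags (5.26-fold and 13.995-fold), the second classed as promoter of si:dkey-196j8.2. It was followed by chr8:40839908-40840338 and chr8:40849877-40850202 with 84 and 52 tags (12.8-fold and 5.18-fold), and by chr4:23617361-23617721 and chr4:23627322-23627588 with 41 and 39 tags (6.02-fold and 5.61-fold). The pair at chr22:11252656-11252943 and chr22:11262529-11262869 had 52 and 64 tags (5.91-fold and 8.54-fold), with the next interval only 10.08 kb on. The ascl1a pair was the fifth, at 9897 bp. All of these members were strong, against 74.2% of all members and 60.5% of all intervals.

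At the other extreme, 31 pairs had midpoints at most 1 kb apart. The closest, chr4:37180234-37180455 and chr4:37180507-37180733, lay 275.5 bp apart with 38 and 35 tags (3.37-fold and 3.13-fold). Pairs at 361.5 bp on chromosome 18, starting at 30251982 and 30252355, and at 366.5 bp on chromosome 1, starting at 22596695 and 22597031, had 41 and 30 tags (5.32-fold and 4.35-fold) and 28 and 22 tags (4.03-fold and 2.44-fold). Sites this near are resolved only to the extent of the 200 bp tag extension.

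The 2 remaining pairs among the 5 closest were of another kind. The intervals chr7:59894705-59894915 and chr7:59894976-59895308 had 346 and 361 tags but only 1.22-fold and 1.252-fold enrichment, over local input backgrounds of 284 and 288 tags. Likewise chr11:35982513-35982915 and chr11:35982990-35983191 had 358 and 236 tags, input backgrounds of 274 and 177 tags, and 1.30-fold and 1.33-fold enrichment. Another such pair, 662.5 bp apart at chr10:12029894-12030307 and chr10:12030651-12030875, had 312 and 293 tags over backgrounds of 234 and 222 tags. With 1 tag kept per position and strand, a pileup cannot exceed 400 tags, and the highest of these sites stood at 361 tags.

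An input background of 28.2 tags or more, 5 times the level over the whole genome, was counted as high and found at 16 members (3.01%), against 22.0% of the intervals in larger groups, 0.981% of those alone and 2.82% of all intervals. Both members were of this kind in 6 pairs, with pileups from 148 to 361 tags and fold enrichments from 1.22 to 2.04, and 1 member in 4 pairs. Of these 6 pairs, 4 were among the 31 closest, and the remaining 27 close pairs had a median fold enrichment of 4.25 (2.03 to 14.9). Strong members numbered 40 of 62 in the closest pairs and 355 of 470 in those over 1 kb apart, against 60.5% of all intervals. All 40 were among the 54 members of those 27 close pairs, and none was in the 4 close pairs with both members at high input.

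To ask how alike the members of a pair were, the taller pileup was divided by the shorter. The ratio had a median of 1.40 (1.33 to 1.52) and quartiles of 1.15 and 1.92, and 8 pairs had equal pileups. In 154 of the 266 pairs (57.9%) the 95% interval of the ratio held 1, so that at this depth a difference between the members was not detectable, and wider intervals, as a count of both fragment ends would require, could only raise this number. The ratio was at most 1.25 in 93 pairs, above 2 in 59 and above 4 in 10. Fold enrichment differed 1.38 times in the median and length 1.27 times, while the local input background differed 1.16 times.

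Across pairs, the 2 pileups were weakly related, with a Spearman rho of 0.277 (n = 266 pairs) and a Pearson r of 0.417 on log2 values. The corresponding rho was 0.310 for fold enrichment, 0.0845 for length and 0.469 for input background. All points come from the same libraries, and the background windows of close members can overlap, so the values are descriptions. Without the 10 pairs that had a member at high input background, the pileup rho was 0.230 and the Pearson r 0.277. The lengths of the members were thus almost unrelated, and the pileups weakly related.

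**Figure D4:**
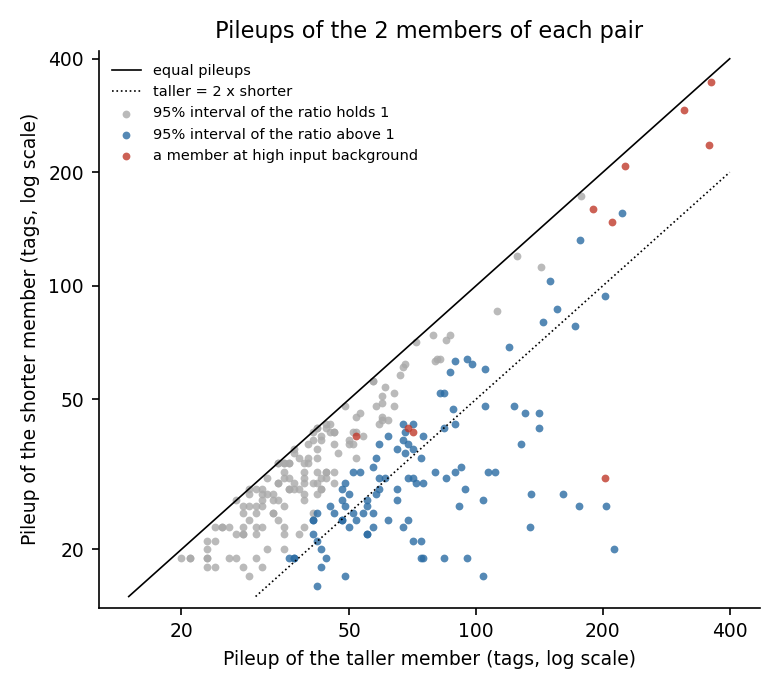
Pileup of the taller against the shorter member of each of 266 pairs, in tags on log scales. Grey points are pairs whose 95% interval of the ratio holds 1, blue points pairs above it, and red points the 10 pairs with a member at high input background; the solid line marks equal pileups and the dotted line a ratio of 2, beyond which lie 59 pairs.

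Values of similar size were found for intervals farther apart. All such steps were taken, including those from a member of a pair or of a larger group, so these sets overlap with the pairs. Successive intervals 10 to 20 kb apart (n = 261) had a pileup rho of 0.323, a fold enrichment rho of 0.373, a length rho of 0.153 and a median pileup ratio of 1.5, and those 20 to 50 kb apart (n = 516) had a pileup rho of 0.228 and a median ratio of 1.45. Among the pairs, the median ratio was 1.24 for the 31 up to 1 kb apart, 1.39 for the 119 between 1 and 5 kb and 1.48 for the 116 beyond 5 kb, and the ratio interval held 1 in 71.0%, 57.1% and 55.2% of them. The pileup rho in these spacing classes was 0.490, 0.190 and 0.280, and that of the input background 0.767, 0.404 and 0.422. In 4 of the 31 closest pairs both members were at high input, with pileups from 208 to 361 tags. The rho of that class is not given without them. Over all 266 pairs, distance and ratio were related with a rho of 0.0932, and distance and the lower fold enrichment with a rho of 0.0248.

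The most unequal pair was on chromosome 22, where chr22:17207812-17208159 had 20 tags (95% interval 12.2 to 30.9, 2.59-fold). Its partner chr22:17210224-17210695, classed as promoter of the nuclear factor I gene nfia, had 213 tags (185 to 244, 24.96-fold), a ratio of 10.65 (6.72 to 17.8). On chromosome 11, chr11:39084615-39084818 had 26 tags (3.69-fold) and chr11:39089100-39089547 had 204 tags and 28.7-fold enrichment, the highest fold enrichment of any interval on chromosomes 1 to 25. Also on chromosome 11, chr11:44423005-44423260 had 26 tags (3.42-fold) and chr11:44430001-44430429, assigned to the sulfotransferase gene sult6b1, had 176 tags (22.4-fold). On chromosome 13, chr13:52246809-52247070 had 17 tags (2.71-fold) and chr13:52249312-52249742 had 104 tags (13.3-fold). In these 4 pairs an interval of strong enrichment had a minor one as its neighbour, at similar input background.

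The remaining pair among the 5 most unequal had a raised input at its taller member. The interval chr22:42245495-42245696 had 31 tags over a background of 9.70 tags (2.99-fold), and chr22:42254141-42254495 had 202 tags over a background of 124 tags (1.62-fold), so that the taller member had the lower fold enrichment.

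Taller members were usually longer. With the 8 ties left out, the taller interval was also the longer in 192 of 258 pairs (74.4%, 68.8 to 79.4%). Over the 532 members pileup and length were related with a rho of 0.650. Both measures come from the same tags and the same peak calling, so they are not independent of each other. The taller member stood at the lower coordinate in 135 of 258 pairs (52.3%, 46.2 to 58.3%), an interval that holds an even split.

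Both members were strong in 160 pairs (60.2%, 54.2 to 65.8%), 1 member in 75 (28.2%) and neither in 31 (11.7%). A member was strong in 320 of 395 cases (81.0%, 76.9 to 84.6%) where its partner was strong, and in 75 of 137 (54.7%, 46.4 to 62.8%) where it was not. Both members of every pair enter these counts, so the cases are not separate and the intervals are too narrow. In the 75 mixed pairs the strong member had a median of 44 tags and 5.35-fold enrichment, and its partner 23 tags and 3.00-fold enrichment. For comparison, both intervals were strong in 59.4% of successive intervals 10 to 20 kb apart and in 49.4% of those 20 to 50 kb apart. The share just outside the joining distance lay within the interval of the share of pairs. The compared steps overlap with the pairs, since 63 pairs had another interval within 20 kb, so the shares are not separate.

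The distribution over chromosomes was uneven in number. Chromosome 7 had the most pairs, 24, with 48 of its 293 intervals in pairs (16.4%, 95% Wilson interval 12.6 to 21.1%), and chromosome 25 the fewest, 4, with 8 of 112 (7.14%, 3.66 to 13.5%). Chromosomes 11, 13 and 22 had 16 pairs each and chromosomes 4 and 17 had 15 each, and the median over the 25 chromosomes was 9. Chromosomes with more intervals had more pairs, with a rho of 0.583 (n = 25 chromosomes). Members of pairs are themselves counted among the intervals, so this relation follows in part from the rule.

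The share of intervals in pairs ranged from 7.14% on chromosome 25 to 20.3% on chromosome 22 (14.7 to 27.2%), with a median of 10.8%. The interval of this share held the overall 11.7% on 22 of 25 chromosomes and lay above it on chromosomes 7, 11 (16.9%, 12.3 to 22.9%) and 22. These intervals count members singly although members enter by pairs, so they are too narrow. The lower limits on chromosomes 7 (12.6%) and 11 (12.3%) were close to 11.7%, so these chromosomes are not clearly above the overall share. Chromosome 22 was the highest of 25, with no allowance for that choice, and 3 of its 16 pairs lay within chr22:11989-414816. Whether its share exceeds the overall share was not tested. Per Mb between the first and the last interval, chromosome 22 had 0.379 pairs, chromosome 11 had 0.346 and chromosome 7 had 0.313, against a median of 0.174 and 0.104 on chromosome 25. The pairs of chromosome 7 were close and modest, with a median spacing of 2482 bp and a median fold enrichment of 3.70, and those of chromosome 22 were 4550 bp apart in the median with 5.13-fold enrichment. On chromosome 3, both members were strong in all 8 pairs, against 60.2% of pairs on all chromosomes. Of these 8 pairs, 4 lay within chr3:24111577-24464103, and no allowance was made for picking this chromosome from 25.

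**Figure D5:**
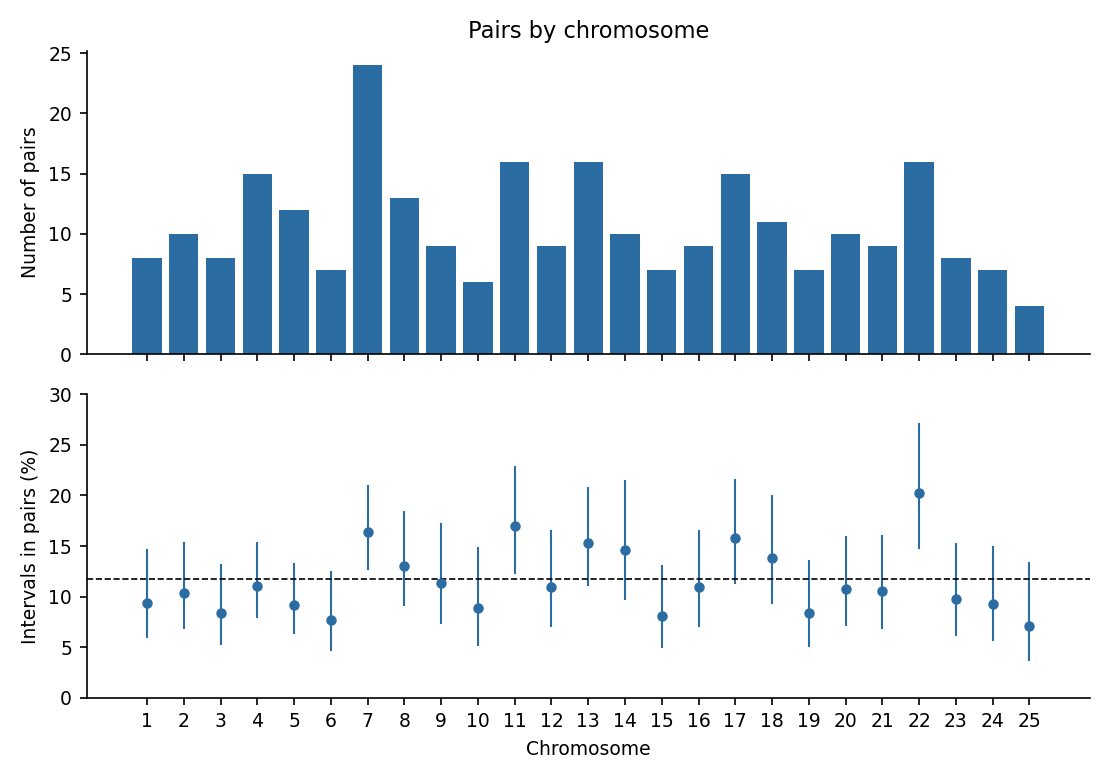
Number of pairs (top) and percent of intervals in pairs with 95% Wilson intervals (bottom) for chromosomes 1 to 25. The Wilson intervals count members singly and are too narrow. Chromosome 7 has 24 pairs and chromosome 25 has 4, and the dashed line is the share over all chromosomes, 11.7%.

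Some pairs lay in neighbourhoods, which were defined after the values were seen as at least 3 pairs with successive centres at most 250 kb apart. Other intervals, alone or in larger groups, could lie between the pairs. How many neighbourhoods the density of intervals would give was not tested. There were 7, with 25 pairs in all. The cyp26a1 neighbourhood at chr12:9569950-9791060 held 4 pairs among 19 intervals, with fold enrichments of the members from 2.45 to 15.3 and 7 of 8 members strong. Around si:ch211-84g22.1, chr3:24111577-24464103 held 4 pairs among 22 intervals, all 8 members strong, from 4.12-fold to 24.6-fold. For comparison, 74.2% of all members and 60.5% of all intervals were strong. The neighbourhood with hoxd4a, chr9:1841010-1945052, held 3 pairs among 7 intervals (2.77-fold to 13.9-fold). That with meis2a, chr17:53429717-53597752, held 3 pairs among 6 intervals (3.48-fold to 7.85-fold). That ending in the tall chromosome 5 pair, chr5:75314977-75564116, held 3 pairs among 6 intervals (3.29-fold to 13.1-fold). At the end of chromosome 22, chr22:11989-414816 held 3 pairs among 10 intervals (2.94-fold to 10.8-fold).

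The largest neighbourhood had weak intervals. In chr8:35312793-35795685, 5 pairs stood among 25 intervals over 482.9 kb, with pileups from 40 to 69 tags and fold enrichments from 1.85 to 2.57. The local input background of the 10 members was between 19.2 and 29.0 tags, several times the genome-wide 5.64 tags. Of the 10 members, 4 were strong, against 60.5% of all intervals. What the raised input contributed to this run of pairs was not tested.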

How the data were processed

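The authors aligned reads to the zebrafish Zv9 assembly using bowtie2. Peaks of 1 RARaa library over 1 input library were called by MACS2 (2.1.1.20160309) at a q threshold of 0.05 and a genome size of 1400000000. Per the file headers, each 41 bp tag was extended to 200 bp, and 1 tag per position and strand was used. The pileup deposited for a peak is a signal that counts the ChIP tags over its summit. The deposited −log10 p-value and −log10 q-value compare it with the local input by a Poisson model, and the deposited fold is its ratio to that input, with a pseudocount of 1. Groups were taken from the antibody labels.

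Lines that shared an interval were collapsed to the line with the highest pileup. The input background was recovered from pileup and fold enrichment, and −log10 p recomputed from it differed from the deposited value by at most 0.00427%. Medians carry 95% intervals of ranks, shares Wilson intervals, pileups exact Poisson intervals and ratios of pileups exact (Clopper-Pearson) intervals. They were computed with Python 3.11.15 and scipy 1.17.1. The joining of intervals, the ratio intervals and the Spearman correlation were tested on simulated data, and the other intervals were not. Spearman and Pearson correlations are given without a test.

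The pairs named were the 10 with the highest fold enrichment of their lower member, the 5 closest, the 5 widest, the 5 most unequal in pileup, the 3 with the highest input background at both members, up to 12 with both members annotated, and all with a member assigned to a gene on a list of RA pathway, RA target and hox genes. Gene names came from the annotation tables of the study by exact position. The members and lists were chosen with earlier results of these data known. No Zv9 sequence was used here, so no sequence is shown. Alternatives changed the joining distance, the measure of distance, the peak threshold, the treatment of high input, the sequences kept and the definition of a strong interval.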

Additional observations from a re-analysis of the deposited data

How the results depend on the processing

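Of 77 alternative values for 8 results, 52 stayed within the interval of the reported value, or within 1.5 times for the number of pairs, and 25 did not. Joining by the gap between ends or by summits, leaving out high input and adding unplaced sequences moved none of the 8 results beyond these limits. Joining at 5 kb gave 176 pairs with a median spacing of 2382 bp. Joining at 20 kb gave a median spacing of 7853 bp, a median fold enrichment of 4.10, 68.2% strong members and 51.9% of pairs with both members strong. With intervals of −log10 q above 5 only, there were 175 pairs with a median fold enrichment of 5.17. Above 10 there were 106, with a median fold enrichment of 6.63, a pileup rho of 0.474 and a median pileup ratio of 1.29. With fold enrichment of at least 4 only, there were 128 pairs, a median of 6.15-fold, a pileup rho of 0.451, a length rho of 0.209 and 100% strong members and pairs with both strong, since every such interval passed both limits. The Pearson r of log2 pileup was 0.417. Defined as −log10 q above 10, strong members were 51.7% and pairs with both strong 31.6%, as a pileup above 50 tags 31.4% and 15.04%, and as a fold enrichment of at least 4 57.9% and 40.2%, against 37.4%, 22.1% and 44.5% of all intervals. No paired analysis was possible because each group had 1 library and no result came from a test between groups. With 1 library each, differences between embryo batches could not be measured, and depth limits the comparison of the 2 members of a pair to differences beyond counting error.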

Other observations

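Pairs were also present on sequences not placed on a chromosome, which the report leaves out. Of 203 intervals on 122 such sequences, 16 formed 8 pairs on 8 sequences, with midpoints 301.5 to 8666 bp apart and a median of 905.5 bp. Their fold enrichment ranged from 1.62 to 4.81 with a median of 2.55. Of the 16 members, 4 were strong, against 60.5% of all intervals on chromosomes 1 to 25. The strong share of all 203 unplaced intervals is not given here, so the pairs cannot be set apart from unplaced intervals in general. The local input background had a median of 11.5 tags and reached 61.3 tags, against a genome-wide level of 5.64 tags.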
